A study of Gallus gallus with 8 samples.

Results

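The genes described here are 8 members of the intrinsic cell death pathway of the chicken, the caspase genes *CASP2*, *CASP6* and *CASP9* and the BCL2 family genes *BID*, *BAK1*, *BCL2*, *BCL2L1* and *MCL1*. They were taken by gene symbol from a count table of 24154 genes, and all 8 were found and passed the filter on low counts, which kept 13639 genes. RNAseq libraries of polyA-selected mRNA had been made from intervertebral discs (IVDs) of the tail of chickens at 10 wk of age, 4 from fusing pygostyle IVDs, where the distal vertebrae join into a single bone, and 4 from free caudal IVDs, which stay unfused. The birds were Tetra chickens by the study's methods and white leghorn chickens by the sample labels, and no treatment or genetic change is named for either group. The tissue came from 8 chickens. Neither source states how many discs a library holds, or whether a bird gave discs of both kinds. By the study's supplement, the IVDs taken from each pygostyle combined different stages of maturation.

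Apoptosis by the intrinsic route is decided at the outer mitochondrial membrane. BAK1 forms pores there when BH3-only proteins such as BID activate it, and BCL2, BCL2L1 (BCL-xL) and MCL1 bind and hold back these death-promoting relatives. Once the membrane is breached, cytochrome c and APAF1 assemble the apoptosome on which the initiator caspase CASP9 is activated, and CASP9 in turn activates executioner caspases that dismantle the cell. CASP6 is an executioner caspase that cleaves nuclear lamins, and CASP2 is an initiator that responds to stress and DNA damage. BID is cut by CASP8, which ties death receptors at the cell surface to the mitochondrial route. In mammals BCL-xL is known to keep growth plate chondrocytes alive. Caspases act as zymogens, so the mRNA of a caspase is not a measure of its activity.

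The comparison asked whether mRNA of the cell death machinery differed between remodeling and permanent discs. *BCL2* was 4.94-fold lower in fusing pygostyle IVDs than in free IVDs, *BID* was 2.83-fold higher, *MCL1* 1.70-fold higher and *BAK1* 1.59-fold higher. *CASP2*, *CASP6*, *CASP9* and *BCL2L1* did not pass the test. Fold changes are those of fusing over free IVDs from edgeR's quasi-likelihood test with TMM scaling, which equalizes the bulk of genes between libraries. A gene is said to have risen or fallen where the Benjamini-Hochberg adjusted p over all 13639 genes was under 0.05, and to have been called where its log2 fold change also exceeded 1 in size. Thus 3 of the 8 members rose, against 19.6% of all tested genes, and 1 fell, again against 19.6%. With the limit of 2-fold, *BID* was called higher (13.2% of all genes) and *BCL2* lower (9.64%). At the shares of all genes 1.57 of 8 genes would rise and 1.57 would fall. The median log2 fold change was 0.31 over the 8 members and 0.013 over all genes.

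**Figure D1:**
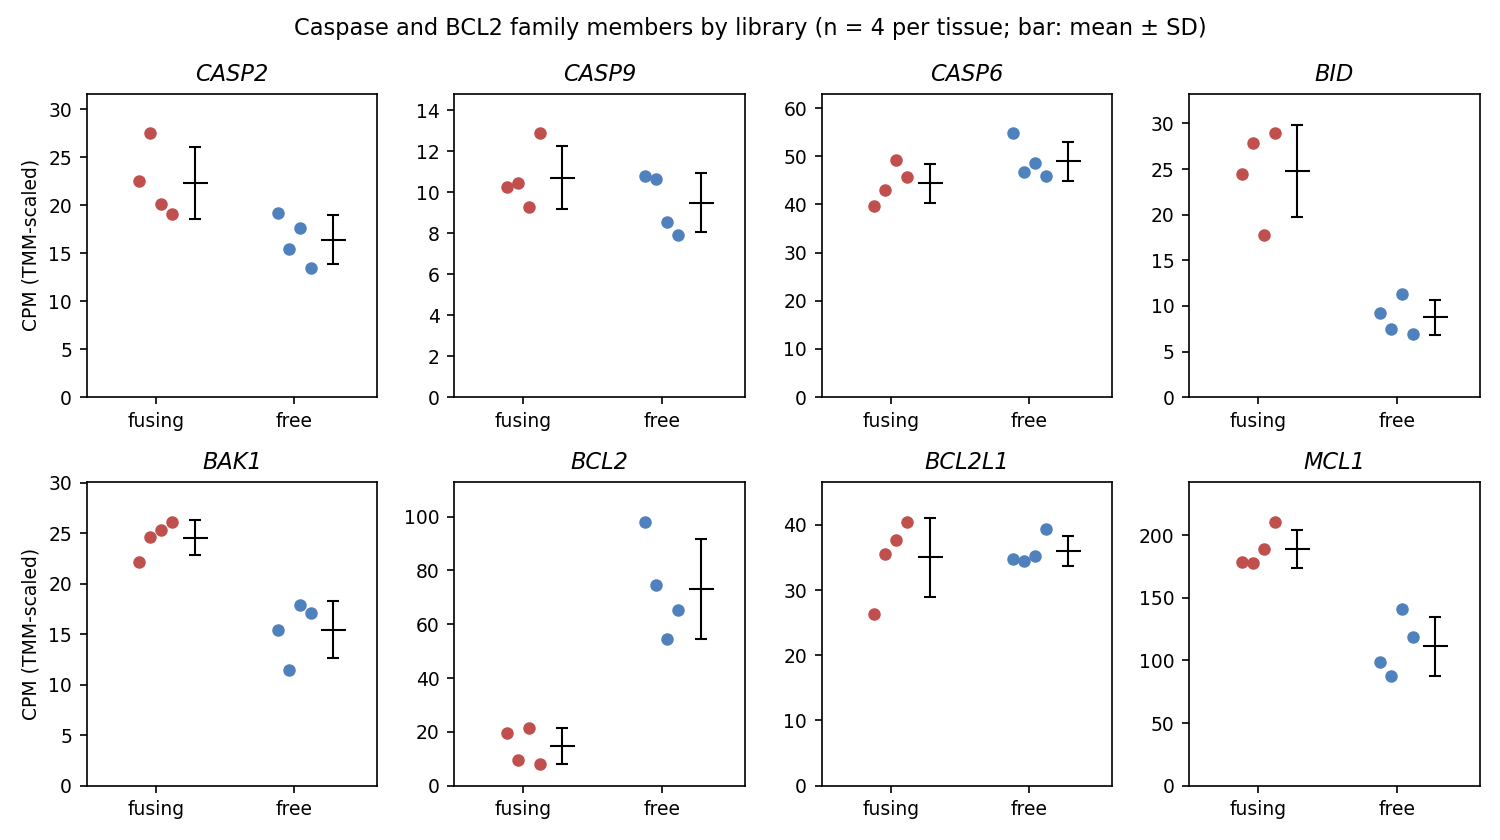
Expression of the 8 members in each library, in CPM, which are counts relative to each library's TMM-scaled total, on linear axes that start at 0. Points are the 4 fusing (left, red) and 4 free (right, blue) libraries in replicate order, and bars give the mean ± SD. All fusing libraries lie below the free libraries for *BCL2* (8.20 to 21.4 against 54.5 to 98.1 CPM) and above them for *BID*, *BAK1* and *MCL1*, and the tissues overlap in the other 4 genes. Of all tested genes, 20.2% lie wholly below in this way and 19.6% wholly above.

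The libraries held from 5682402 to 18434459 counts, and the shallowest was fusing replicate 2. The lowest count of any member in any library was 65, for *BID* in free replicate 4. The 10 most abundant genes took from 18.0 to 25.2% of the counts in fusing and from 34.3 to 44.4% in free libraries. Cartilage genes such as *ACAN* and *COL2A1* were abundant in both tissues, with a sum over 10 genes of 64598 to 181597 CPM in fusing and 164835 to 250134 CPM in free libraries, and 1 of the 10 was called higher and 3 lower in fusing IVDs. Of the marker lists for other cell types, some differed between the tissues and others did not. The counts of called markers stand beside 13.2% of all genes called higher and 9.64% called lower. Of 9 tested heterophil markers 8 were called higher in fusing IVDs, with summed levels of 2735 to 6094 CPM in fusing and 163 to 592 CPM in free libraries. Of 9 macrophage markers 8 were called higher (751 to 1571 CPM in fusing and 129 to 291 CPM in free libraries), and of 9 T and B cell markers 8 (86.4 to 315 and 14.3 to 36.4 CPM). Of 10 osteoblast markers 8 were called higher (1950 to 2558 CPM in fusing and 19.7 to 510 CPM in free libraries). Of 10 annulus and fibrous tissue markers 8 were called lower and 1 higher, with sums of 33565 to 48796 CPM in fusing and 142038 to 379092 CPM in free libraries. Osteoclast markers went both ways, with 5 of 8 called higher and 2 lower, and *MMP9* is on both this list and the heterophil list. Of 5 thrombocyte markers 3 were called higher, and of 5 erythroid markers 1. None of 6 endothelial, 5 skeletal muscle or 2 nucleus pulposus and notochord markers passed the test in either direction. No listed marker that was found in the table had a count of 0 in every free library. In bulk tissue, fewer cells of a type and less RNA per cell cannot be told apart, and the part of cell makeup in the results was not tested.

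Of the survival-promoting members, *BCL2*, the founding gene of the family, lies on the plus strand of chromosome 2 of GRCg6a, from 67837316 to 67924872. It had 19.7, 9.68, 21.4 and 8.20 CPM in fusing replicates 1 to 4, against 98.1, 74.4, 54.5 and 65.3 CPM in free replicates 1 to 4. All fusing libraries lay below all free libraries, as did 20.2% of all tested genes. Among the fusing libraries, replicates 1 and 3 were well above replicates 2 and 4, so that *BCL2* had the widest spread of the 8 members there (coefficient of variation 45.9%). The log2 fold change was -2.31 (SE 0.33, adjusted p = 0.000810 by edgeR), with a 95% interval from -3.06 to -1.55. It lay at the 2.71 percentile of the log2 fold changes of all genes. Most annulus and fibrous tissue markers fell as well. Among the free libraries *BCL2* was highest in replicate 1, where these markers summed to 227481 CPM, and the markers were highest in replicate 2, at 379092 CPM. Both were lowest in free replicate 3. Among the fusing libraries, *BCL2* was highest in replicate 3, where the markers had their lowest sum, 33565 CPM. The markers were highest in fusing replicate 2, at 48796 CPM, where *BCL2* had 9.68 CPM. A link between *BCL2* and these markers was not tested. *BCL2* overlaps the gene LOC112531773 in position but not in exons.

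*MCL1*, which encodes a short-lived survival protein that many leukocytes require, lies on chromosome 25, from 3685997 to 3694822, and shares exonic sequence with *ENSA*. It had 178, 178, 189 and 211 CPM in fusing replicates 1 to 4, against 98.8, 87.2, 141 and 118 CPM in free replicates 1 to 4. Each fusing library was above each free library, as in 19.6% of all genes. This gave a log2 fold change of 0.76 (SE 0.16, adjusted p = 0.00547 by edgeR), with a 95% interval from 0.40 to 1.13.

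*BCL2L1*, on chromosome 20 from 10015061 to 10033228, encodes BCL-xL. It had 26.4, 35.5, 37.7 and 40.5 CPM in fusing replicates 1 to 4, against 34.8, 34.4, 35.3 and 39.4 CPM in free replicates 1 to 4. The tissues overlapped, with fusing replicate 1 the lowest and fusing replicate 4 the highest of the 8 libraries. Its log2 fold change was near 0, at -0.039 (SE 0.14, adjusted p = 0.855 by edgeR), with a 95% interval from -0.36 to 0.28. Without fusing replicate 1 it was 0.058 (adjusted p = 0.727).

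Of the death-promoting members, *BID* lies on the minus strand of chromosome 1, from 61841784 to 61860381. It had 24.5, 27.9, 17.8 and 28.9 CPM in fusing replicates 1 to 4, against 9.18, 7.50, 11.3 and 6.97 CPM in free replicates 1 to 4. All fusing libraries were above all free libraries, as in 19.6% of all genes. The lowest fusing library, replicate 3, was also the fusing library with the lowest summed heterophil (2735 CPM) and macrophage (751 CPM) markers, and the highest free library, replicate 3, had the highest of the free libraries (592 and 291 CPM). Fusing replicate 3 was also lowest in T and B cell, erythroid, annulus and proliferation sums, and highest in thrombocyte and cartilage sums. Free replicate 4, lowest in *BID*, had a heterophil sum of 341 CPM, above replicates 1 (304 CPM) and 2 (163 CPM). A link between *BID* and these markers was not tested. Fusing over free IVDs gave *BID* a log2 fold change of 1.50 (SE 0.21, adjusted p = 0.000667 by edgeR), with a 95% interval from 1.03 to 1.97. It lay at the 90.1 percentile of all genes. Next to *BID* lies *BCL2L13*, another family member, which runs on the plus strand and ends at 61841448, so that the genes converge tail to tail.

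*BAK1*, on chromosome 26 from 4677456 to 4689316, encodes the pore-forming effector. It had 22.1, 24.6, 25.3 and 26.1 CPM in fusing replicates 1 to 4, against 15.4, 11.5, 17.9 and 17.1 CPM in free replicates 1 to 4. The fusing libraries all lay above the free libraries, as in 19.6% of all genes. They lay within a narrow range, with a coefficient of variation of 7.01% in fusing and 18.4% in free IVDs. *BAK1* had a log2 fold change of 0.67 (SE 0.15, adjusted p = 0.00776 by edgeR), with a 95% interval from 0.32 to 1.01. The free library with the highest *BAK1*, *BID* and *MCL1* and the lowest *BCL2* was the same, replicate 3. Markers of many kinds were highest of the free group in that library. Besides the heterophil and macrophage sums these were osteoblast (510 CPM), osteoclast (1495 CPM), endothelial (374 CPM), cartilage (250134 CPM) and proliferation genes (183 CPM). Nucleus pulposus and notochord genes (37.7 CPM) were highest there too. Annulus (142038 CPM), erythroid (2867 CPM) and skeletal muscle sums (18.1 CPM) were lowest of the free group in that library. T and B cell and thrombocyte sums lay in between. A link between these markers and the members was not tested.

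The caspases differed less. *CASP2*, on chromosome 1 from 78336971 to 78363000, shares exonic sequence with *RAP1GAP1*. It had 22.5, 27.5, 20.2 and 19.1 CPM in fusing replicates 1 to 4, against 19.2, 15.5, 17.6 and 13.4 CPM in free replicates 1 to 4. The tissues overlapped by a small margin, since fusing replicate 4 was just under free replicate 1. Its log2 fold change of 0.44 (SE 0.16, unadjusted p = 0.0246, adjusted p = 0.0598 by edgeR) had a 95% interval from 0.070 to 0.80 and lay close to the threshold. It passed with DESeq2 (0.43, adjusted p = 0.0490), with upper-quartile factors (0.53, adjusted p = 0.0290) and without fusing replicate 4 (0.51, adjusted p = 0.0492), and over all alternatives its adjusted p ranged from 0.00183 to 0.161.

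*CASP9*, the caspase of the apoptosome, lies on chromosome 21 from 4924621 to 4930933. It had 10.3, 10.4, 9.29 and 12.9 CPM in fusing replicates 1 to 4, against 10.8, 10.7, 8.57 and 7.94 CPM in free replicates 1 to 4. The libraries of the tissues were interleaved. For *CASP9* the log2 fold change came to 0.17 (SE 0.17, adjusted p = 0.458 by edgeR), with a 95% interval from -0.22 to 0.57.

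*CASP6*, the executioner caspase among the members, lies on chromosome 4 from 58140818 to 58154002. It had 39.7, 43.0, 49.2 and 45.6 CPM in fusing replicates 1 to 4, against 54.8, 46.7, 48.5 and 45.8 CPM in free replicates 1 to 4. The tissues overlapped, and *CASP6* varied little within either of them, with coefficients of variation of 9.07% and 8.27% in fusing and free IVDs. *CASP6* had a log2 fold change of -0.14 (SE 0.11, adjusted p = 0.332 by edgeR). The 95% interval, from -0.39 to 0.10, holds no change as large as 2-fold in either direction.

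**Figure D2:**
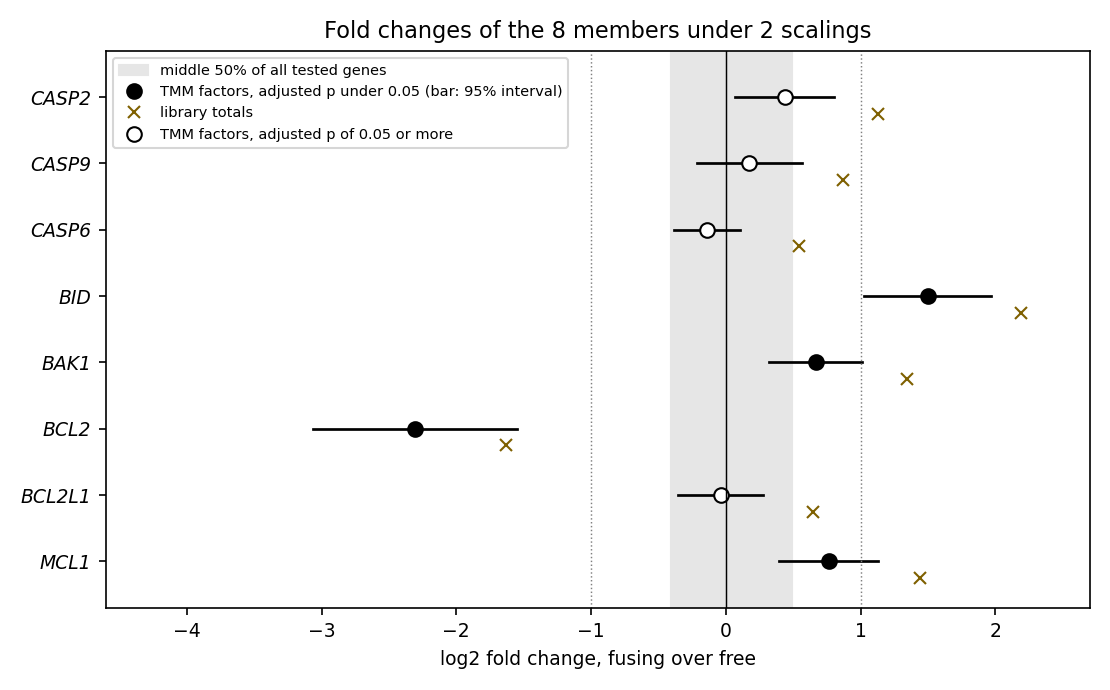
Log2 fold changes of the 8 members, fusing over free IVDs. Circles are values with TMM scaling (filled where the adjusted p was under 0.05), bars their 95% intervals, crosses the values when libraries were scaled by their totals alone, the grey band the middle 50% of all tested genes, and dotted lines mark a fold of 2. *BCL2* stands apart at -2.31, *BID* is highest at 1.50, and scaling by totals moves every member to the right.

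The scaling between libraries bears on each of these values. When libraries were scaled by their total counts alone, the median of all genes moved by 0.69 on the log2 scale, and 60.3% of all genes rose while 7.12% fell. With that scaling 7 members rose and *BCL2* fell. *BCL2* had a log2 fold change of -1.63, *BID* of 2.19, *MCL1* of 1.44 and *BAK1* of 1.35. The direction of *CASP6* (0.54, adjusted p = 0.00754) and *BCL2L1* (0.65, adjusted p = 0.00443) was turned round, and *CASP9* (0.87) and *CASP2* (1.13) passed. Relative to the median of all genes the values changed little, to -2.33 for *BCL2*, 1.48 for *BID*, 0.74 for *MCL1* and 0.64 for *BAK1*. *BCL2*, *BID*, *BAK1* and *MCL1* stayed at an adjusted p under 0.05 under all 17 alternatives tried.

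Ratios of genes within a library do not depend on the scaling, and were formed from reads per kilobase of exon. Of the reads per kilobase of *MCL1*, *BCL2L1* and *BCL2* together, *BCL2* had 15.4, 7.61, 14.6 and 5.62% in fusing replicates 1 to 4, against 54.7, 49.6, 35.1 and 40.8% in free replicates 1 to 4. *MCL1* had from 58.3 to 65.2% in fusing and from 24.9 to 41.0% in free libraries. The tissues did not overlap in either share, while the share of *BCL2L1* overlapped, at 21.7 to 29.3% in fusing and 20.4 to 25.8% in free libraries. The predominant survival transcript of this set was *MCL1* in all 4 fusing libraries, whereas *BCL2* exceeded *MCL1* in free replicates 1, 2 and 4, with ratios of 2.20, 1.89 and 1.22, and not in free replicate 3 (0.857). The lead of *BCL2* there rests on the division by exon length, 6323 bases for *MCL1* and 2852 for *BCL2*. In undivided counts *MCL1* was the higher in every free library, with 1529, 964, 1594 and 1104 against 1518, 823, 616 and 609 in replicates 1 to 4.

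The summed reads per kilobase of the death-promoting *BAK1* and *BID* over those of *BCL2*, *BCL2L1* and *MCL1* were 0.505, 0.572, 0.404 and 0.523 in fusing replicates 1 to 4, against 0.187, 0.173, 0.257 and 0.204 in free replicates 1 to 4. All fusing libraries were above all free libraries, with a difference of mean log2 ratios of 1.29. The ratio holds these members alone, so its size rests on the genes chosen. It recombines the changes of members given above, *BID* and *BCL2* among them, and adds no separate evidence. Outside it, the death-promoting *BOK* had 12.2 CPM per kilobase in fusing and 24.7 in free IVDs. The survival-promoting *BCL2L10* had 55.7 and 38.1, and both differences run opposite to that of the ratio. Of the 9 other death-promoting genes tested, 3 rose and 2 fell. A ratio over the whole family was not formed. *BID* over *BCL2L1* gave 0.651 to 1.28 in fusing and 0.244 to 0.442 in free libraries. *BAK1* over *MCL1*, in contrast, gave 0.363 to 0.404 in fusing and 0.371 to 0.455 in free libraries, so that these genes kept nearly the same proportion to each other in all 8 libraries. Among the caspases, *CASP2* over *CASP6* gave 0.793 to 1.24 in fusing and 0.567 to 0.702 in free libraries without overlap. *CASP9* over *CASP6* overlapped, with 0.690 to 1.03 in fusing and 0.634 to 0.835 in free libraries. These ratios are given as descriptions, without a test.

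**Figure D3:**
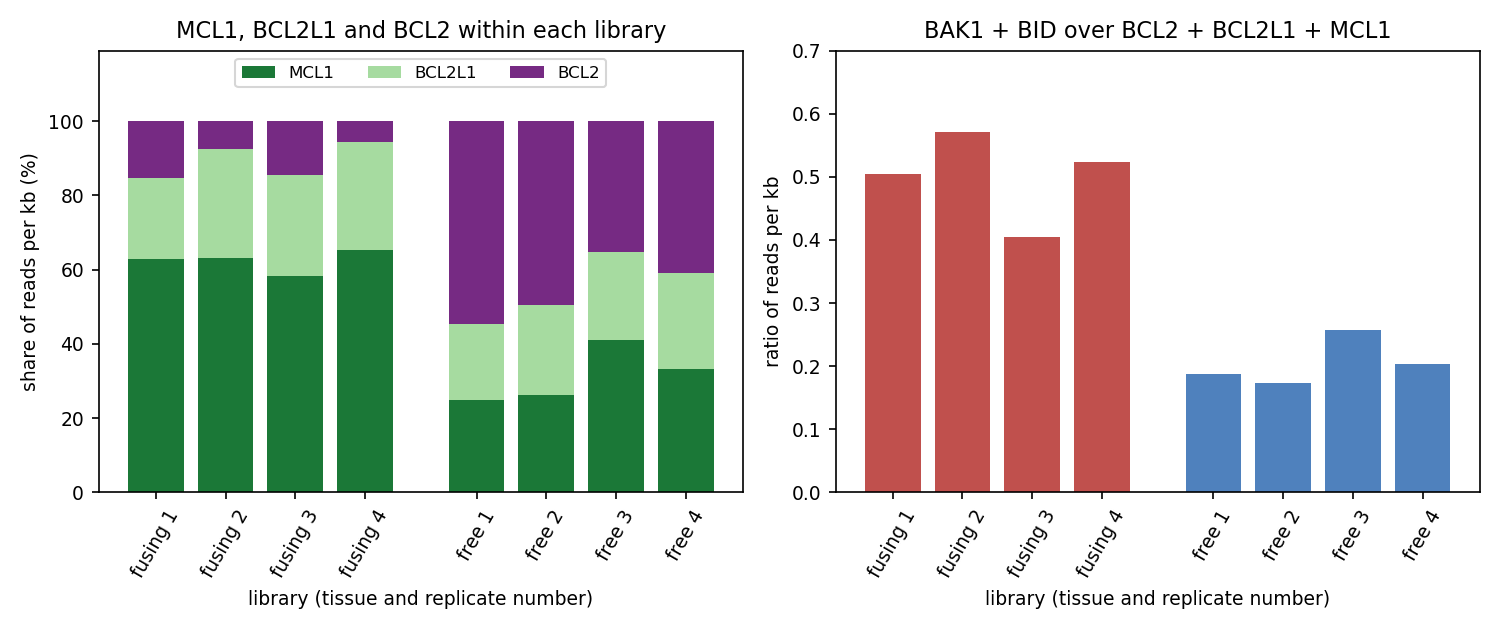
Left, the share of *MCL1*, *BCL2L1* and *BCL2* in their summed reads per kilobase of exon, in percent, for each library. Right, the ratio of the reads per kilobase of *BAK1* and *BID* to those of *BCL2*, *BCL2L1* and *MCL1*. Fusing libraries stand on the left of each plot and free libraries on the right, and the ratio lies between 0.404 and 0.572 in fusing and between 0.173 and 0.257 in free libraries.

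In CPM per kilobase of exon, *BCL2* was last of the 8 members in fusing IVDs, at 5.17 ± 2.37 (SD, n = 4), and first in free IVDs, at 25.6 ± 6.51 (SD, n = 4). *MCL1* was first in fusing IVDs, at 29.9 ± 2.44, and stood alone, since *BCL2L1* followed at 12.9 ± 2.25 (SD, n = 4 each). *BCL2L1*, *BID* (12.6 ± 2.55) and *BAK1* (11.3 ± 0.80) overlapped in level in fusing IVDs. Below a gap came *CASP6* (6.75 ± 0.61), *CASP2* (6.57 ± 1.10), *CASP9* (5.96 ± 0.85) and *BCL2*, each overlapping the next. In free IVDs *BCL2*, *MCL1* (17.6 ± 3.73) and *BCL2L1* (13.3 ± 0.84) each overlapped the next, and so did *CASP6* (7.44 ± 0.62), *BAK1* (7.14 ± 1.31), *CASP9* (5.28 ± 0.81), *CASP2* (4.83 ± 0.74) and *BID* (4.44 ± 0.99). Only *MCL1* thus stood clear above *BID* in fusing IVDs. *BCL2L1* was above *BID* by mean but below it in fusing replicates 1 (9.73 against 12.4) and 2 (13.1 against 14.1). In free IVDs *BID* was last among the members by mean.

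The patterns most like those of the 4 members that rose or fell were looked for among all tested genes, by Pearson's r of log2 CPM over the 8 libraries. Since the tissues form separate clusters, this likeness rests mainly on the difference between them. *BID* was most like *IGSF1L3* (0.996), *GLIPR1L* (0.995) and *LOC100857883* (0.995). *BCL2* was most like *SLC38A7* (0.996), *ZDHHC20* (0.996) and *ARHGAP21* (0.995). *BAK1* was most like *CBX5* (0.994), *LIG1* (0.990) and *TGOLN2* (0.990), and *MCL1* like *LIG1* (0.993), *MEPE* (0.991) and *LOXL4* (0.989).

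The remaining genes of the cell death machinery were taken from lists of 57 names, of which 47 were found by symbol and 44 tested. Of these, 16 rose and 4 fell, where 19.6% of all genes rose and 19.6% fell, and 9 (20.5%) were called higher and 1 (2.27%) lower, beside 13.2% and 9.64% of all genes. Over the 44 genes the log2 fold change had a median of 0.19.

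Among the other caspases, *CASP18*, a caspase related to CASP8, had 7.02, 12.2, 3.35 and 6.88 CPM in fusing replicates 1 to 4, against 0.840, 0.633, 0.442 and 0.536 CPM in free replicates 1 to 4. Its log2 fold change was 3.53 (SE 0.44, adjusted p = 0.000381 by edgeR), and it shares exonic sequence with *CASP8*, whose own value was 0.73 (adjusted p = 0.0566). *CASP8* passed with DESeq2 (0.73, adjusted p = 0.0319), upper-quartile factors (0.82, adjusted p = 0.0359) and library totals (1.43, adjusted p = 0.00372). It also passed with the block by sample code number (0.61, adjusted p = 0.0464) and without fusing replicate 3 (0.91, adjusted p = 0.00712). With other single libraries left out, its adjusted p reached 0.144.

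In the BCL2 family beyond the members, 9 death-promoting genes were tested, of which 3 rose and 2 fell (19.6% of all genes in each direction). *BCL2L14* had 2.54, 4.58, 1.90 and 4.17 CPM in fusing replicates 1 to 4, against 0.323, 0.542, 0.177 and 0 CPM in free replicates 1 to 4, and a log2 fold change of 3.56 (SE 0.60, adjusted p = 0.00170 by edgeR). *PMAIP1* (NOXA), a BH3-only gene that in mammals counters MCL1, had 2.12 (SE 0.66, adjusted p = 0.0293 by edgeR). It did not pass without fusing replicate 2 (1.61) or 4 (2.21), or without free replicate 1 (1.78) or 4 (1.85). *BMF*, another BH3-only gene, rose by 0.72 on the log2 scale (SE 0.18, adjusted p = 0.0107 by edgeR).

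*BOK*, a relative of BAK1 that can form pores, had 10.8, 12.9, 13.7 and 15.5 CPM in fusing replicates 1 to 4, against 25.1, 34.2, 17.4 and 30.7 CPM in free replicates 1 to 4, all fusing libraries being below (20.2% of all genes). Its log2 fold change was -1.02 (SE 0.21, adjusted p = 0.00497 by edgeR). With the replicate block it was -0.99, and it was also under the limit of 2-fold without fusing replicate 1 (-0.95) and without free replicate 2 (-0.89) or 4 (-0.96). *BCL2L13* had -0.37 (adjusted p = 0.0394, and 0.0594 with the replicate block), and leaving out single libraries raised its adjusted p to 0.05 or more in 6 of 8 cases, with values from -0.46 to -0.30. With library totals *BOK* was at -0.31 (adjusted p = 0.163) and *BCL2L13* at 0.34. Of the survival-promoting genes, *BCL2A1*, which is known from mammals as a leukocyte gene, had 1.97 (SE 0.40, adjusted p = 0.00398 by edgeR). *BCL2L10* had 0.55 (SE 0.17, adjusted p = 0.0319 by edgeR), which did not pass in 5 of 8 cases when single libraries were left out, with values from 0.43 to 0.65. Most heterophil and macrophage markers rose in fusing IVDs too, but so did most osteoblast markers, the proliferation genes and 19.6% of all genes. A link of any of these to *BCL2A1* was not tested.

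For the apoptosome and mitochondrial death proteins, 9 genes were tested, of which 3 rose and 1 fell, beside the same 19.6% of all genes in each direction. *CYCS*, the gene of cytochrome c, had 51.9, 50.4, 52.9 and 65.8 CPM in fusing replicates 1 to 4, against 24.6, 24.5, 36.3 and 29.2 CPM in free replicates 1 to 4, with a log2 fold change of 0.95 (SE 0.16, adjusted p = 0.00146 by edgeR). Without free replicate 3 it exceeded 2-fold, at 1.08. *APAF1*, the scaffold of the apoptosome, had 0.81 (SE 0.27, adjusted p = 0.0392 by edgeR), and with single libraries left out did not pass in 5 of 8 cases, with values from 0.64 to 0.97. *VDAC1*, a channel of the outer membrane, had 1.05 (SE 0.26, adjusted p = 0.0114 by edgeR), and under 2-fold without fusing replicate 1 (0.99) or 2 (0.90) and without free replicate 3 (0.97) or 4 (0.96). *DIABLO*, which in mammals relieves caspases of their inhibitors, fell by 0.49 on the log2 scale, and with library totals was at 0.20.

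Among 4 caspase inhibitors only *BIRC5* (survivin), which is also a gene of cell division, passed, where 19.6% of all genes rose and 19.6% fell. *BIRC5* had 1.68 (SE 0.27, adjusted p = 0.00119 by edgeR), and *XIAP* had -0.31 (adjusted p = 0.122). All 6 tested proliferation genes rose as well, with sums of 299 to 483 CPM in fusing and 120 to 183 CPM in free libraries. Of 4 tested genes for caspase substrates and DNA fragmentation, 2 rose, beside 19.6% of all genes. *LMNB1* (lamin B1) had 2.87 (SE 0.29, adjusted p = 0.000150 by edgeR) and *PARP1* had 0.36 (SE 0.094, adjusted p = 0.0141 by edgeR). *PARP1* did not pass without fusing replicate 1 (0.33). The nuclease *DFFB* and its inhibitor *DFFA* had -0.28 and -0.20 (adjusted p = 0.166 and 0.271). *CRADD*, the adaptor of CASP2, had 0.015 (adjusted p = 0.953).

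Of 7 genes of the death receptor route, 1 rose and 1 fell, beside 19.6% of all genes in each direction. *TNFRSF1A*, the receptor for TNF, fell by 0.76 on the log2 scale (SE 0.11, adjusted p = 0.000787 by edgeR), but was at -0.056 with library totals. *TRADD*, its adaptor, had 0.36 (adjusted p = 0.0349), and with single libraries left out did not pass in 7 of 8 cases, with values from 0.30 to 0.42. *FADD*, *CFLAR* and *RIPK1* had -0.030, -0.074 and 0.12, with adjusted p-values of 0.869, 0.784 and 0.442. For necroptosis, a form of cell death without caspases, *RIPK3* had 7.45, 8.91, 4.34 and 6.97 CPM in fusing replicates 1 to 4, against 0.129, 1.18, 0.619 and 0.107 CPM in free replicates 1 to 4. Its log2 fold change was 3.76 (SE 0.60, adjusted p = 0.00131 by edgeR). With single libraries left out it ranged from 3.38 to 4.57, the highest without free replicate 2. *MLKL*, which RIPK3 activates, had 3.37 (SE 0.60, adjusted p = 0.00228 by edgeR). With single libraries left out it ranged from 3.05 to 4.22, the highest again without free replicate 2. The block by sample code number gave adjusted p-values by edgeR of 0.0257 for *RIPK3* and 0.0444 for *MLKL*. *MLKL* was not kept by the filter of 1 CPM in 4 libraries.

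**Figure D4:**
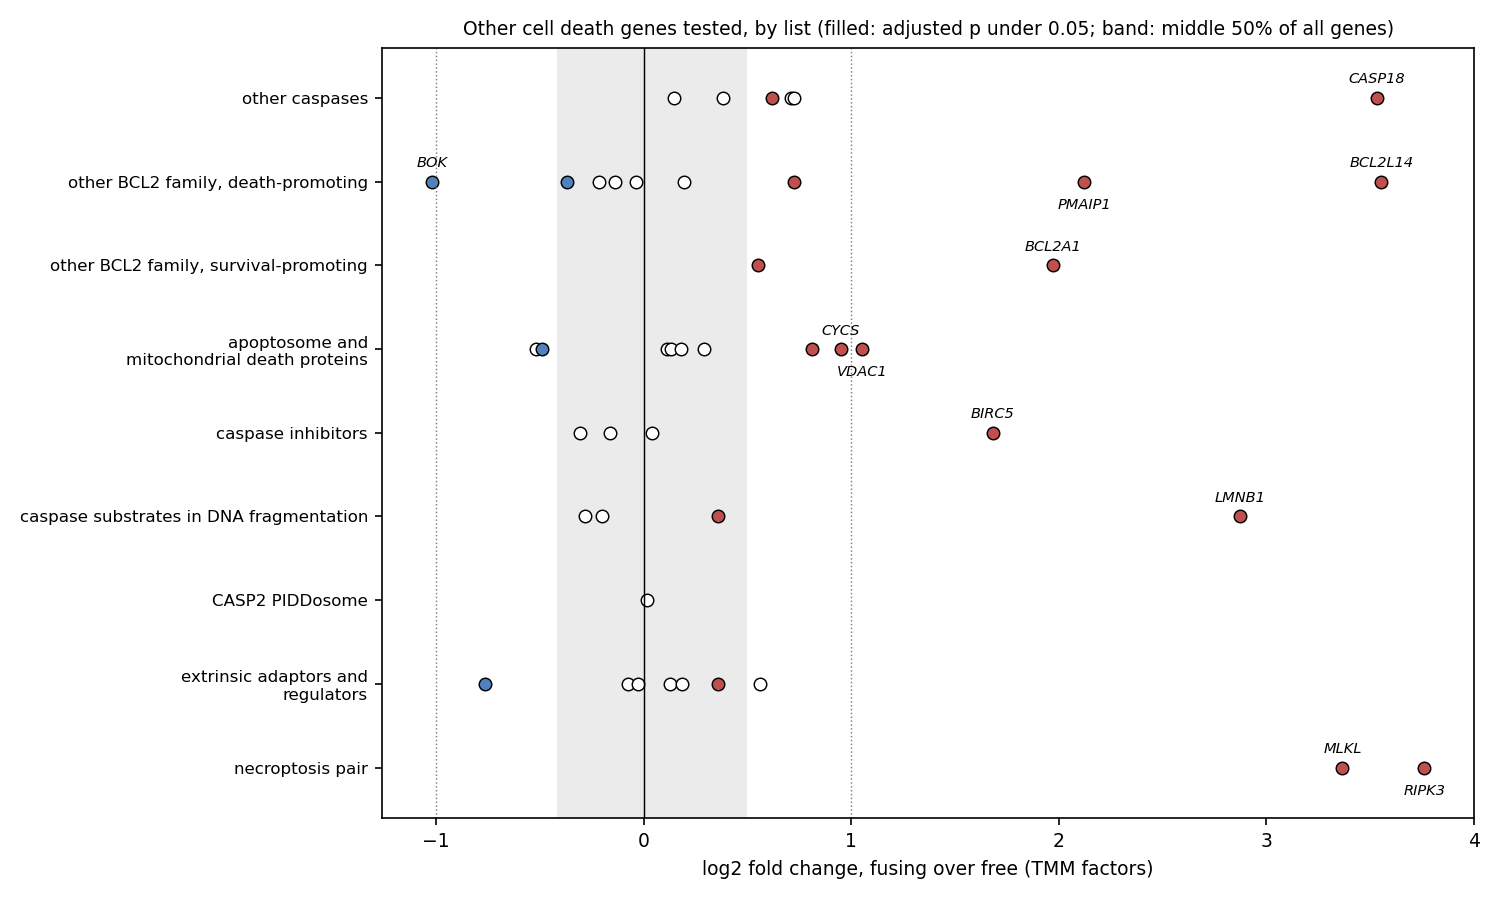
Log2 fold changes, fusing over free IVDs, of the 44 tested cell death genes other than the 8 members, by list. Each circle is a gene, filled where the adjusted p was under 0.05, the grey band holds the middle 50% of all tested genes, dotted lines mark a fold of 2, and names are given for genes that passed at about 2-fold or more. *RIPK3*, *BCL2L14*, *CASP18* and *MLKL* lie beyond 3, and *BOK* is the lowest at -1.02.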

How the data were processed

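The authors aligned untrimmed read pairs of unstranded polyA libraries to GRCg6a with STAR, counted them per gene with featureCounts and dropped reads assignable to more than 1 gene. The authors deposited whole-number counts without normalization. Strand was not used, so genes with overlapping exons are less certain. A second deposited table holds the authors' own DESeq2 fold changes and p-values and was not used. Here edgeR 4.0.16 (R 4.3.3, TMM factors, quasi-likelihood test) compared 4 fusing with 4 free libraries, without covariates. The filter (filterByExpr, minimum count 10, minimum total 15) kept 13639 of 24154 genes, and p-values were adjusted over all of them by Benjamini-Hochberg. Standard errors came from the test statistic, and log2 CPM used a prior count of 2. CPM per kilobase used the exon length in the count table. Chromosome names were assigned by matching gene symbols to RefSeq's table for GRCg7b, while positions are those of GRCg6a in the count table. The test was tried on simulated counts.

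Libraries were grouped by tissue and numbered by their titles. Deviations from the tissue means correlated at 0.24, 0.16, 0.11 and 0.25 between libraries of the same number, all over 0.1, so a block by these numbers was among the alternatives. No source says what they mark, and of the 12 pairs with unlike numbers 2 were over 0.1 too (fusing 1 with free 3 at 0.19, fusing 3 with free 4 at 0.13). The titles also carry sample code numbers, which are 12, 11, 10 and 8 in fusing and 12, 10, 9 and 8 in free replicates 1 to 4. By code, fusing 1 goes with free 1 (0.24) and fusing 4 with free 4 (0.25), while fusing 3 goes with free 2 (-0.061) and not with free 3. The main test used neither numbering. Where the replicate block moved a gene across a threshold, its value stands beside the result. Replicates are separate samples by their labels, and in each pair differed by more than sampling noise. P-values set the difference between the tissues against the spread between these libraries. The alternatives were RLE and upper-quartile factors, library totals, no filter, a filter of 1 CPM in 4 libraries, DESeq2 1.42.0, limma-voom (limma 3.58.1), a block by replicate number or by sample code number, and leaving out each library. The members, gene lists and tests were chosen with earlier results of these data known. Genes named from the lists were those called, those among a list's 3 largest changes with an adjusted p under 0.05, and, chosen after their values were seen, *CASP8*, *BMF*, *BCL2L13*, *DIABLO*, *XIAP*, *DFFA*, *DFFB*, *CRADD*, *FADD*, *CFLAR* and *RIPK1*. Some genes of the lists are not reported here by name.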

Additional observations from a re-analysis of the deposited data

Results flagged for a closer look

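Of 36 sets of 4 libraries examined (the CPM of each member and 10 within-library ratios and shares, in each tissue), 2 held a library far from the others, and chance gives about 1 in 20. For *BCL2L1* in free IVDs, replicate 4 had 39.4 CPM and the others 34.4 to 35.3 CPM, so that its gap was 0.832 of the range. For the ratio of *BCL2L1* to *MCL1* in fusing IVDs, replicate 1 had 0.345 and the others 0.448 to 0.465, a gap of 0.854 of the range. *BCL2L1* did not pass the test without either library.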

How the results depend on the processing

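*BID*, *BAK1*, *MCL1* and *BCL2* kept their direction and stayed under an adjusted p of 0.05 in all 17 alternatives. With single libraries left out, log2 fold changes ranged from 1.40 to 1.64 for *BID*, 0.54 to 0.74 for *BAK1*, 0.66 to 0.89 for *MCL1*, -2.54 to -2.10 for *BCL2*, 0.32 to 0.51 for *CASP2*, -0.21 to -0.091 for *CASP6*, 0.071 to 0.24 for *CASP9* and -0.12 to 0.058 for *BCL2L1*. *CASP2* passed with upper-quartile factors (0.53), library totals (1.13) and DESeq2 (0.43). *CASP9* passed with library totals (0.87), and *CASP6* changed direction there (0.54). *BCL2L1* changed direction with upper-quartile factors (0.060), library totals (0.65) and without fusing replicate 1 (0.058). With library totals, 4 members exceeded 2-fold upward (4179 of 13639 genes), 7 rose at any fold (60.3% of all genes) and 7 had all fusing libraries above (54.4% of all genes), while *BCL2L13* (0.34) and *DIABLO* (0.20) changed direction, and 20 list genes were called higher. The number of list genes called lower (1, *BOK*) was 0 with upper-quartile factors, library totals, limma-voom and the replicate block, 2 without a filter, and 0 to 2 with single libraries left out. Without fusing replicate 3, 2 members had all fusing libraries below, *BCL2* and *CASP6* (24.0% of all genes), and with single libraries left out this number ranged from 1 to 2. Without division by length, the log2 difference of *BAK1* and *BID* over the survival-promoting members was 0.92. The replicate block moved no member across a threshold, and of the list genes named here for which alternatives were run only *BCL2L13* and *BOK*. *XIAP*, *DFFA*, *DFFB*, *CRADD*, *FADD*, *CFLAR* and *RIPK1* were not followed through the alternatives. A block by sample code number leaves fusing replicate 2 (code 11) and free replicate 3 (code 9) without a partner. These libraries then add nothing to the contrast of the tissues, so fewer libraries carry that test. With that block, *BMF*, *PMAIP1*, *BCL2L10*, *VDAC1*, *PARP1* and *TRADD* no longer passed, while *CASP8* passed. The cause of these changes was not tested. Library totals moved the median of all genes by 0.69, and called 4179 genes higher and 624 lower, beside 1797 and 1315 with TMM factors. Every member had at least 65 counts in each library, and the part of depth in the spread between libraries was not tested. *MLKL*, *PMAIP1* and *BCL2L14* rest on 5, 18 and 13 counts over the free libraries. *RIPK3*, *CASP18* and *BCL2A1* are low there too, with 23, 30 and 42 counts.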
